A study of Mus musculus with 9 samples.

Results

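Genes that mark mesothelial cells were followed in activated fibroblasts from a pair of mouse models of liver fibrosis and in hepatic stellate cells from healthy liver. The rule took 9 genes by symbol: Msln, Upk3b, Upk1b, Wt1, Lrrn4, Gpm6a, Muc16, Bnc1 and Pdpn. Of the 24453 genes in the table, 8 are these markers, and Muc16 was not analysed here. All 8 passed the filter on low counts. HSCs were quiescent stellate cells isolated by density gradient from the normal livers of wild-type C57BL/6J mice. CCl4-fib and NASH-fib were CD45- GFP+ cells sorted by FACS from fibrotic livers of Col1a2-GFP Tg mice, in which a collagen α2(I) promoter drives the GFP, so the sort could take any liver cell in which that promoter was active. The mice behind CCl4-fib received carbon tetrachloride, a hepatotoxin, 2 times per week for 8 weeks. Those behind NASH-fib carried both the transgene and the MC4R knockout (MC-COL, also on C57BL/6J) and were fed a Western diet for 20 weeks, starting as 8-week-old males. Each group has 3 libraries, each from the cells of 3 to 5 pooled mice, and ages of the other mice are not given in the sources used here. HSCs therefore differed from both fibroblast groups in disease, transgene and isolation method at once, and these cannot be told apart. NASH-fib and CCl4-fib differed in the MC4R genotype, the diet and the toxin, which cannot be told apart either.

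The mesothelium is the flat epithelium that covers the liver and the other organs of the body cavities. It arises from mesoderm, and so carries keratins and apical proteins of epithelia together with genes of mesenchyme. Lineage tracing from Wt1 and Msln has linked mesothelial cells in some models of liver injury to cells near the liver surface that express collagen, while podoplanin and some of the other genes are also made by fibroblasts, lymphatic endothelium or cholangiocytes.

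The libraries held 3071070 to 3825522 reads on genes for HSCs, 4687349 to 5634273 for CCl4-fib and 3289758 to 5021156 for NASH-fib. Values below are reads scaled to a common total per library (4471988 to 4471995), so 1 read is worth 0.794 to 1.46. The labels were checked with defining genes: Lrat, the retinol acyltransferase of quiescent stellate cells, was 7070.5 to 14894 in HSCs and 95.4 to 458 in the fibroblasts. Col1a2 was 930.1 to 2065 for HSCs, 12466 to 15534 for CCl4-fib and 3860.5 to 7426 for NASH-fib. The knocked-out gene, Mc4r, was at 0 reads outside NASH-fib and had 4, 13 and 0 reads in NASH-fib replicates 1 to 3, too few to check the genotype. In several HSC and NASH-fib libraries the values moved with the GC content of the transcripts. NASH-fib replicate 1 and HSC replicate 2 were the ones with lower values at high GC content, and differences between NASH-fib and CCl4-fib that rest on them are given with and without them.

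By the annotation in the table (mm10), Msln (NM_018857) lies on the minus strand at chr17:25748613-25754327, Upk3b (NM_175309) on the plus strand at chr5:136038496-136044993 and Upk1b (NM_178924) on the minus strand at chr16:38773184-38800203. Pdpn (NM_010329) lies on the minus strand at chr4:143267409-143299564, Lrrn4 (NM_177303) on the minus strand at chr2:132868516-132880862 and Gpm6a (NM_001253754) on the plus strand at chr8:54779434-55060878. Wt1 (NM_144783) lies on the plus strand at chr2:105126529-105173614, on the chromosome of Lrrn4, and Bnc1 (NM_007562) on the minus strand at chr7:81966662-81992299. The values cover exons only, untranslated regions included, and reads of either strand were counted. In GENCODE M21 the exons of Bnc1 share 98 bases, 2.11% of their length, with a pseudogene on the other strand (4833418N17Rik), and no exon of the other 7 overlaps another gene. Reads on those bases of Bnc1 cannot be assigned to a strand.

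Promoter windows of 250 bases before the start were found in the RefSeq table (GRCm38.p6) for 6 of the 9 genes. The following 3 are shown because Upk3b, Gpm6a and Bnc1 are markers with a window whose NASH-fib and CCl4-fib libraries did not overlap. Upk3b was lower and the others higher in NASH-fib, though none of the 3 differences passed the threshold of the main test given below. Every NASH-fib library was below every CCl4-fib library for 22% of tested genes and above for 17.1%. The windows are Upk3b at chr5:136038246-136038495 (plus strand), Gpm6a at chr8:54779184-54779433 (plus strand) and Bnc1 at chr7:81992300-81992549 (minus strand). Capitals mark the letters CATTCC (the TEAD site) or GGGCGG (the GC box of Sp and KLF factors) on either strand.
Upk3b: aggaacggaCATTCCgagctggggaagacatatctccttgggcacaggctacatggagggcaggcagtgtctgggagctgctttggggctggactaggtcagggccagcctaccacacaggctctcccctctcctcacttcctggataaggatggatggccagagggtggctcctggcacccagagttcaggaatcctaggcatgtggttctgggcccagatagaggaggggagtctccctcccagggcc
Gpm6a: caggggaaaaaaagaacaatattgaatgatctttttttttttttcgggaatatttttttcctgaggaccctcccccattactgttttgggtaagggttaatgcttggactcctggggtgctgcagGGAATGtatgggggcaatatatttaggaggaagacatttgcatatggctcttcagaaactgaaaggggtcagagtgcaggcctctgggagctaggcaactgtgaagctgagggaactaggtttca
Bnc1: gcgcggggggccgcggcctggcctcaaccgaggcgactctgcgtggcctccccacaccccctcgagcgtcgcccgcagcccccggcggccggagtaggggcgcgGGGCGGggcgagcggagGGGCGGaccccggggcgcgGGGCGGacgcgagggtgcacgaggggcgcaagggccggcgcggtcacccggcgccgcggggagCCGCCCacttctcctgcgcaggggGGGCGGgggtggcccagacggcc
The windows of Upk3b and Gpm6a each held 1 match to CATTCC, its first base at -241 and -125 from the start, and this motif was present in 12.6% of 32851 promoter windows of the same length. The Bnc1 window was 83.6% G and C, with 39 CpG and 5 matches to GGGCGG, a motif found in 32.7% of all windows. GC content was 60.8% for Upk3b, 44.4% for Gpm6a and 52.4% in the median window. The WT1 and EGR letters GCGGGGGCG (2.57% of windows) and GCGTGGGCG (0.536%) and the TATA box TATAAA (12.4%) were searched too and did not match in these 3 windows, and no matches overlapped. A second Gpm6a window, at chr8:54954478-54954727 and not shown, held 1 match to TATAAA, at -211, and none to CATTCC. A match describes letters, not a bound site.

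The first question was whether the markers differ between the sorted fibroblasts and quiescent HSCs. NASH-fib had all 8 called higher against HSCs, beside 8.23% of the 13651 tested genes, and so had CCl4-fib, beside 16.2% (limma on log2(value + 1), Benjamini-Hochberg adjusted p under 0.05, log2 fold change of 1 or more in size). None was called lower, beside 4.3% and 11.7% of tested genes, and calls in either direction made up 12.5% and 27.8%. In both comparisons every fibroblast library was above every HSC library for all 8, which held for 12.7% and 27.8% of tested genes, while 11.6% and 20.9% had every fibroblast library below. The log2 fold change ran from 3.08 to 5.52 in NASH-fib (median 4.44, against -0.02 over all tested genes) and from 3.15 to 6.43 in CCl4-fib (median 4.67, against 0.18). The comparisons share the 3 HSC libraries. Together the 8 genes took 0.0218% to 0.0303% of the reads of an HSC library, 0.435% to 0.569% of a CCl4-fib library and 0.634% to 0.785% of a NASH-fib library. In sorted bulk cells, more cells of a type in the gate and more RNA of these genes per cell cannot be told apart.

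**Figure D1:**
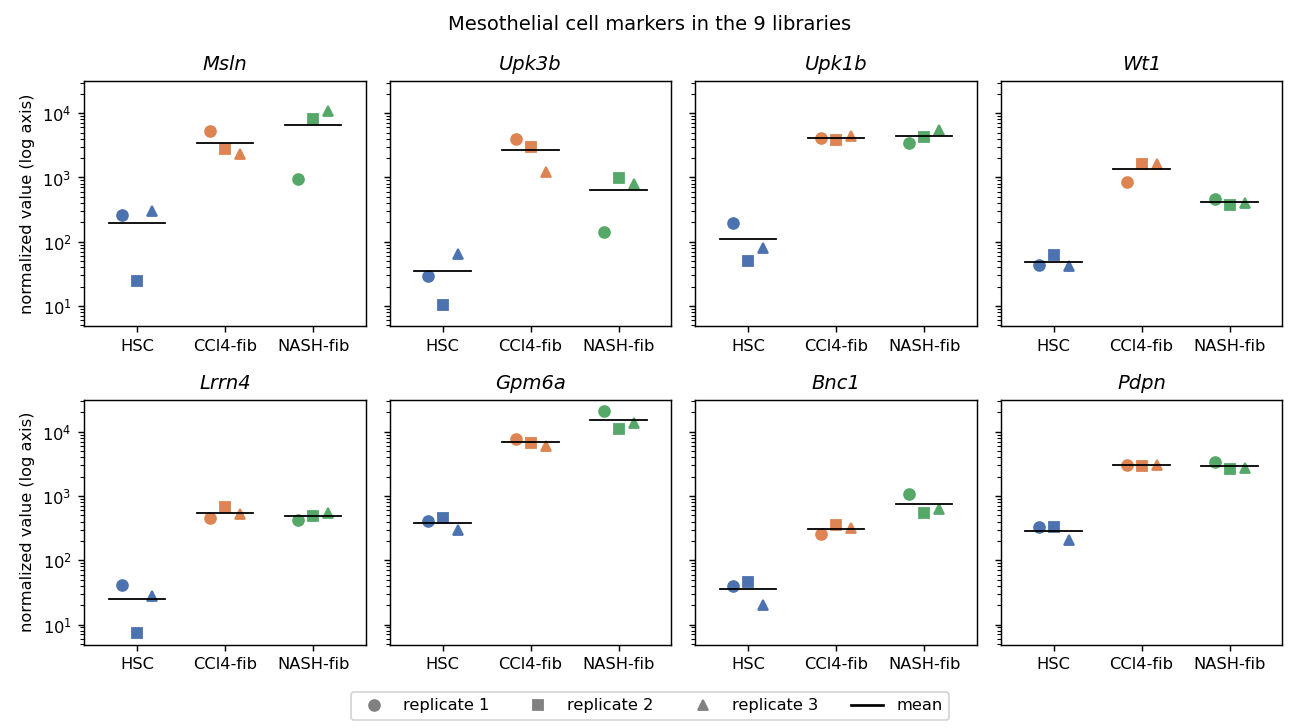
Normalized values of the 8 mesothelial cell markers (log axis) by library, for HSCs, CCl4-fib and NASH-fib. Points are libraries, shapes are replicate numbers and bars are group means. Every fibroblast point lies above every HSC point of the same gene, and NASH-fib replicate 1 lies far below the other NASH-fib libraries for Msln and Upk3b.

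Among the surface glycoproteins, Msln encodes mesothelin, a GPI-anchored protein of the mesothelial surface. Its value was 265, 24.8 and 298 in HSC replicates 1 to 3, 5220.2, 2805 and 2298 among CCl4-fib libraries, and 934, 8041 and 10679 among those of NASH-fib. NASH-fib thus held both the highest libraries and the lowest fibroblast library, which was still 3.14 times the highest HSC value. The log2 fold change was 5.09 (SE 1.04, adjusted p = 0.00816, limma) in NASH-fib and 4.67 (SE 1.04, adjusted p = 0.0076) in CCl4-fib against HSCs. Pdpn encodes podoplanin, a mucin-type glycoprotein that binds CLEC-2 on platelets. Its value was 329.65, 328 and 203 in the HSC libraries, 3022, 2927 and 3083 among CCl4-fib libraries and 3363, 2669 and 2759.7 among NASH-fib libraries. Podoplanin was the steadiest marker in CCl4-fib (3011 ± 78.7, SD, n = 3), and its NASH-fib libraries (2931 ± 377) lay on both sides of those values. The log2 fold changes against HSCs were 3.38 (SE 0.31, adjusted p = 7.51e-05) and 3.42 (SE 0.31, adjusted p = 4.87e-05) for NASH-fib and CCl4-fib.

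The uroplakins are membrane proteins known from the plaques of the bladder surface. Upk1b, a tetraspanin, was 195, 51.0 and 80.1 in the HSC libraries, 4129, 3895 and 4366 among CCl4-fib libraries and 3415, 4223 and 5496 among NASH-fib libraries. The fibroblast groups overlapped, and their lowest library was far above the highest HSC library. It had the largest log2 fold change of the 8 in NASH-fib against HSCs, 5.52 (SE 0.45, adjusted p = 4.26e-05, limma), and 5.46 (SE 0.45, adjusted p = 3.48e-05) in CCl4-fib. Upk3b, a single-pass uroplakin, was 29.2, 10.2 and 64.6 in the HSC libraries, 3916, 3023 and 1196 among CCl4-fib libraries and 141, 965 and 805.9 among NASH-fib libraries. All CCl4-fib libraries were above all NASH-fib libraries, and NASH-fib replicate 1 was the lowest fibroblast library. Its log2 fold change was 4.10 (SE 0.83, adjusted p = 0.0075) in NASH-fib and 6.43 (SE 0.83, adjusted p = 0.000329) in CCl4-fib, the largest of the 8 there.

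Lrrn4 and Gpm6a encode membrane proteins first studied in neurons, a leucine-rich repeat protein and a 4-pass glycoprotein of the proteolipid family. Lrrn4 was 40.9, 7.28 and 27.5 in the HSC libraries, 454, 680.4 and 525 among CCl4-fib libraries and 419, 497 and 550.4 among NASH-fib libraries. HSC replicate 2 held 5 reads of Lrrn4, the fibroblast libraries 308 to 800, and the fibroblast groups overlapped. The log2 fold changes against HSCs were 4.50 (SE 0.54, adjusted p = 0.000367, limma) in NASH-fib and 4.67 (SE 0.54, adjusted p = 0.000186) in CCl4-fib. Gpm6a was 411, 447 and 299 in the HSC libraries, 7605, 6733 and 6053 among CCl4-fib libraries and 21260.5, 11013.5 and 13786 among NASH-fib libraries. The 3 groups did not overlap in any library, with NASH-fib on top. Gpm6a was 5.28 (SE 0.34, adjusted p = 1.43e-05) higher in NASH-fib and 4.15 (SE 0.34, adjusted p = 3.3e-05) higher in CCl4-fib than in HSCs on the log2 scale. It had 4.18 to 5.29 reads per exonic base in NASH-fib and 2.15 to 3.24 in CCl4-fib, and Msln had 4.31 and 5.18 in NASH-fib replicates 2 and 3. The counting kept at most 3 reads per position, and how far this lowered such values was not tested.

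Wt1 and Bnc1 encode zinc finger proteins of the nucleus. WT1 is required for the development of mesothelium and kidney, and basonuclin 1 is known from keratinocytes, germ cells and mesothelium. Wt1 was 43.25, 61.2 and 41.8 in the HSC libraries, 859.6, 1649 and 1604 among CCl4-fib libraries and 466, 379 and 396 among NASH-fib libraries. The groups did not overlap, and CCl4-fib was highest. Against HSCs the log2 fold change of Wt1 was 3.08 (SE 0.36, adjusted p = 0.000313, limma) in NASH-fib, the smallest of the 8, and 4.75 (SE 0.36, adjusted p = 2.59e-05) in CCl4-fib. Bnc1 was 39.75, 46.6 and 20.3 in the HSC libraries, 252, 359 and 318 among CCl4-fib libraries and 1059, 545 and 638 among NASH-fib libraries. The groups did not overlap here either, with NASH-fib highest. Bnc1 was 4.38 (SE 0.42, adjusted p = 9.81e-05) higher in NASH-fib and 3.15 (SE 0.42, adjusted p = 0.000423) higher in CCl4-fib on the log2 scale. All 8 calls against HSCs were kept with each library left out in turn, and also without HSC replicate 2 and NASH-fib replicate 1 together. Without the filter on low counts Msln was not called in either comparison (adjusted p = 0.0781 and 0.0616) and Upk3b not in NASH-fib against HSCs (adjusted p = 0.0668). With the leading text of the sample descriptions as a term, Upk3b was not called in NASH-fib against HSCs either (adjusted p = 0.0598).

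**Figure D2:**
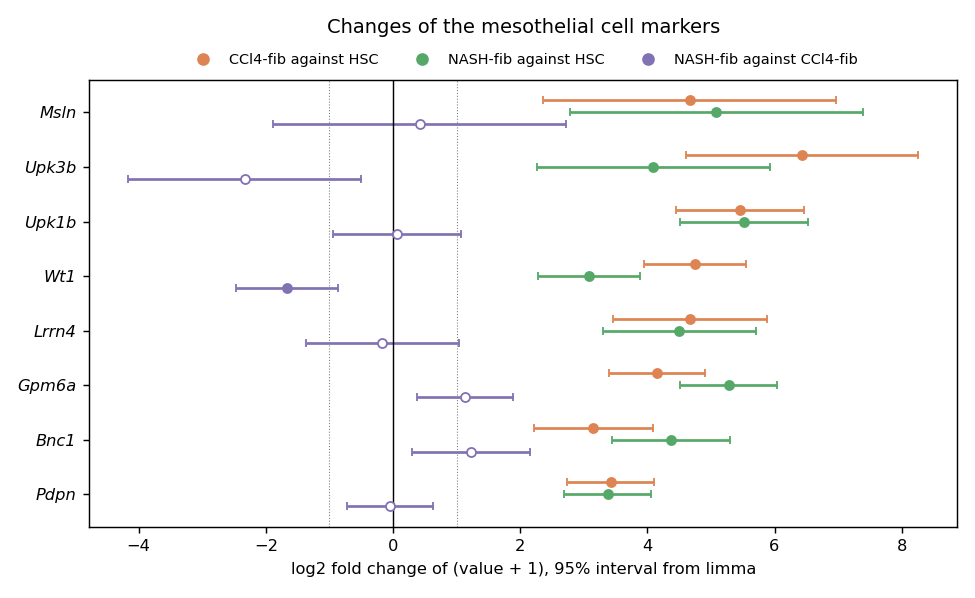
Log2 fold change of (value + 1) for the 8 markers in the 3 comparisons, with 95% intervals from limma and dotted lines at 1 and -1. Filled points were called. All 16 points against HSCs are filled, and of the 8 for NASH-fib against CCl4-fib only Wt1 is.

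The second question was whether the markers differ between NASH-fib and CCl4-fib. Of the 8, 1 was called lower (Wt1) and 0 higher, beside 5.66% and 4.97% of tested genes (10.6% in either direction), and the median log2 fold change was 0.01 against -0.11 over all tested genes. At an unadjusted p under 0.05 the test also took in Upk3b, Gpm6a and Bnc1. Upk3b and Wt1 had every NASH-fib library below every CCl4-fib library, which held for 22% of tested genes, and Gpm6a and Bnc1 every library above, which held for 17.1%. The other 4 overlapped between the groups.

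Wt1 was 414 ± 46.1 (SD, n = 3) in NASH-fib and 1371 ± 443 in CCl4-fib, and the log2 fold change was -1.67 (SE 0.36, adjusted p = 0.0215, limma). The call was lost without CCl4-fib replicate 2 (adjusted p = 0.104), without CCl4-fib replicate 3 (0.073) or without NASH-fib replicate 3 (0.0711). It was also lost with the leading text of the sample descriptions as a term, at a log2 fold change of -1.68 (0.0725). After GC content and length were corrected for, the log2 fold change was -1.16 (0.164) and the call was lost. That correction was fitted to deviations from the mean of all libraries. It can thus also remove a difference between groups that follows GC content or length. Upk3b was 638 ± 437 in NASH-fib and 2712 ± 1386 in CCl4-fib, with a log2 fold change of -2.33 that did not pass (adjusted p = 0.0968, 95% interval -4.16 to -0.51). DESeq2 on the recovered reads called it lower (-1.99, adjusted p = 0.0371), and without NASH-fib replicate 1 the difference was -1.46 (adjusted p = 0.250, limma, and 0.0782 without HSC replicate 2 as well).

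Gpm6a was 15353 ± 5300 in NASH-fib and 6797 ± 778 in CCl4-fib, with a log2 fold change of 1.13 (adjusted p = 0.0604, 95% interval 0.37 to 1.88, limma). It was called higher by DESeq2 (1.39, adjusted p = 0.00893), by edgeR's quasi-likelihood test (1.40, adjusted p = 0.0479) and without NASH-fib replicate 2 (1.34, adjusted p = 0.0472). With GC content and length corrected for, which can also remove a group difference that follows them, it was 0.37 (adjusted p = 0.415, limma). Bnc1 was 747 ± 274 in NASH-fib and 310 ± 53.7 in CCl4-fib, with a log2 fold change of 1.22 (adjusted p = 0.089, 95% interval 0.29 to 2.15), and DESeq2 called it higher (1.48, adjusted p = 0.015). Without NASH-fib replicate 1 the differences were 0.86 for Gpm6a (adjusted p = 0.155, limma) and 0.94 for Bnc1 (adjusted p = 0.226). Without HSC replicate 2 as well they had the same size, with adjusted p = 0.041 for Gpm6a, whose difference was then under the fold threshold, and 0.108 for Bnc1. DESeq2 and edgeR moved the median of all tested genes in this comparison up by 0.23 and 0.25 on the log2 scale relative to the deposited scaling.

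The remaining 4 markers did not pass. Upk1b differed by 0.06 (95% interval -0.95 to 1.06), Lrrn4 by -0.17 (-1.37 to 1.04) and Pdpn by -0.05 (-0.73 to 0.64) on the log2 scale, with adjusted p from 0.859 to 0.946 (limma). Pdpn and Lrrn4 changed sign under other scalings, so neither has a direction here. Msln differed by 0.42 with the widest interval, -1.89 to 2.72 (adjusted p = 0.816). Without NASH-fib replicate 1 and HSC replicate 2 the difference for Msln was 1.52 and was called (adjusted p = 0.0199), while without NASH-fib replicate 1 alone it was also 1.52 but was not called (adjusted p = 0.351).

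NASH-fib replicate 1 and HSC replicate 2 were both low in Msln and Upk3b. The deviation from the group mean of log2(value + 1) was -2.21 for Msln and -1.76 for Upk3b in NASH-fib replicate 1. In HSC replicate 2 it was -2.30 for Msln, -1.33 for Upk3b and -1.37 for Lrrn4. Gpm6a and Bnc1 were above the mean in both libraries, by 0.52 and 0.56 in NASH-fib replicate 1. Over all tested genes with a GC content, 99.4% of those tested, the correlation of GC content with this deviation was -0.480 in NASH-fib replicate 1 and -0.362 in HSC replicate 2. It had the opposite sign in NASH-fib replicate 2 (0.450) and HSC replicate 3 (0.350), deviations being taken from the mean of the same 3 libraries, and ran from -0.173 to 0.218 in the other 5. With the genes in 5 bins of GC content, the lowest and highest bins had median deviations of 0.57 and -0.78 in NASH-fib replicate 1. Msln (55.5% GC, percentile 80.2 of tested genes) and Upk3b (54.0%) lie on the GC-rich side and Gpm6a (39.0%, percentile 2.76) near the AT-rich end. Wt1, with 53.7% GC, deviated by only 0.18. Over the 8 markers the correlation of GC content with the deviation of NASH-fib replicate 1 was -0.665, a description over genes that share a library. With GC content and length corrected for, NASH-fib differed from CCl4-fib by 1.24 in Msln (adjusted p = 0.306, limma) and by -1.79 in Upk3b (adjusted p = 0.0704). The part of GC content in the low Msln and Upk3b values was not tested beyond this. The descriptions of these 2 libraries and of CCl4-fib replicate 1 begin with the same text, and the deviations of CCl4-fib replicate 1 did not follow the others (correlations of -0.127 and -0.072 over all tested genes, against 0.645 between the 2).

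**Figure D3:**
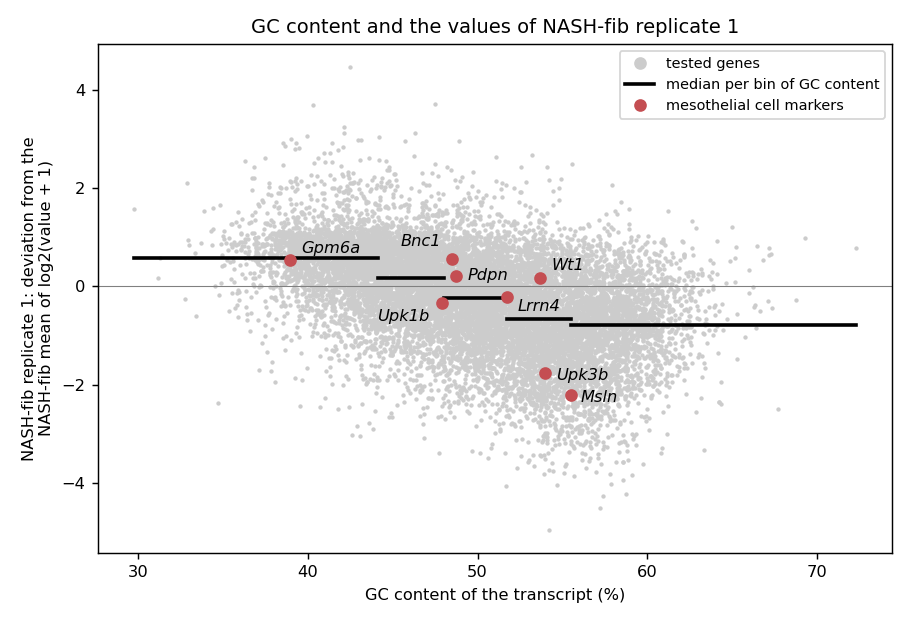
Deviation of NASH-fib replicate 1 from the NASH-fib mean of log2(value + 1) against the GC content of the transcript in percent. Grey points are tested genes, bars the median in each of 5 bins of GC content holding like numbers of genes, and red points the 8 markers. Msln and Upk3b lie below the bar of their bin, Gpm6a close to it and Wt1 and Bnc1 above theirs.

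Per kilobase of exon, the order of the markers differed between the groups. In HSCs Pdpn (157 ± 39.5 per kilobase, SD, n = 3) and Gpm6a (130.5 ± 26.2) were first, followed by Msln, Upk1b, Upk3b and Wt1, with Bnc1 (7.64 ± 2.93) and Lrrn4 (7.28 ± 4.88) last. Every neighbouring pair in HSCs overlapped in its libraries except Wt1 and Bnc1. In CCl4-fib Upk1b (2348 ± 134) and Gpm6a (2299 ± 263) led and overlapped, then came Pdpn (1644), Msln (1641) and Upk3b (1337), which overlapped with their neighbours. Wt1 (445), Lrrn4 (159) and Bnc1 (66.5 ± 11.5) followed in that order with no overlap between neighbours. In NASH-fib Gpm6a (5192 ± 1792), Msln (3124 ± 2404) and Upk1b (2489 ± 596) led, and each overlapped with the next of these. Pdpn (1601 ± 206) overlapped with neither of its neighbours, Upk1b and Upk3b. Msln in NASH-fib replicate 1 (445 per kilobase) was nevertheless below every Pdpn library. Upk3b, Bnc1, Lrrn4 and Wt1 (314 down to 134) came last, and each overlapped with the next of these. Wt1 thus stood above Lrrn4 and Bnc1 in every CCl4-fib library. The ratio of the Wt1 value to the Bnc1 value was 3.41 to 5.05 for CCl4-fib, 0.440 to 0.696 for NASH-fib and 1.09 to 2.06 for HSCs.

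The markers moved together across the 3 groups and less so among the fibroblast libraries. Over all 9 libraries the Pearson correlation of log2(value + 1) was positive for all 28 pairs, from 0.666 (Upk3b and Bnc1) to 0.989 (Gpm6a and Bnc1), with a median of 0.897. Over the 6 fibroblast libraries the median was -0.169, with 12 pairs positive and 16 negative. Gpm6a and Bnc1 kept the highest value there (0.943), followed by Msln and Upk1b (0.811). Upk3b and Bnc1 (-0.926), Msln and Pdpn (-0.914), Upk3b and Gpm6a (-0.860) and Wt1 and Gpm6a (-0.828) were the most opposed. These points share groups, depth and the GC deviations above, and are a description. Within NASH-fib the ratio of the Msln to the Gpm6a value was 0.0439 in replicate 1 and 0.730 and 0.775 in replicates 2 and 3, and in HSCs it was 0.0554 in replicate 2 and 0.645 and 0.996 in the others.

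**Figure D4:**
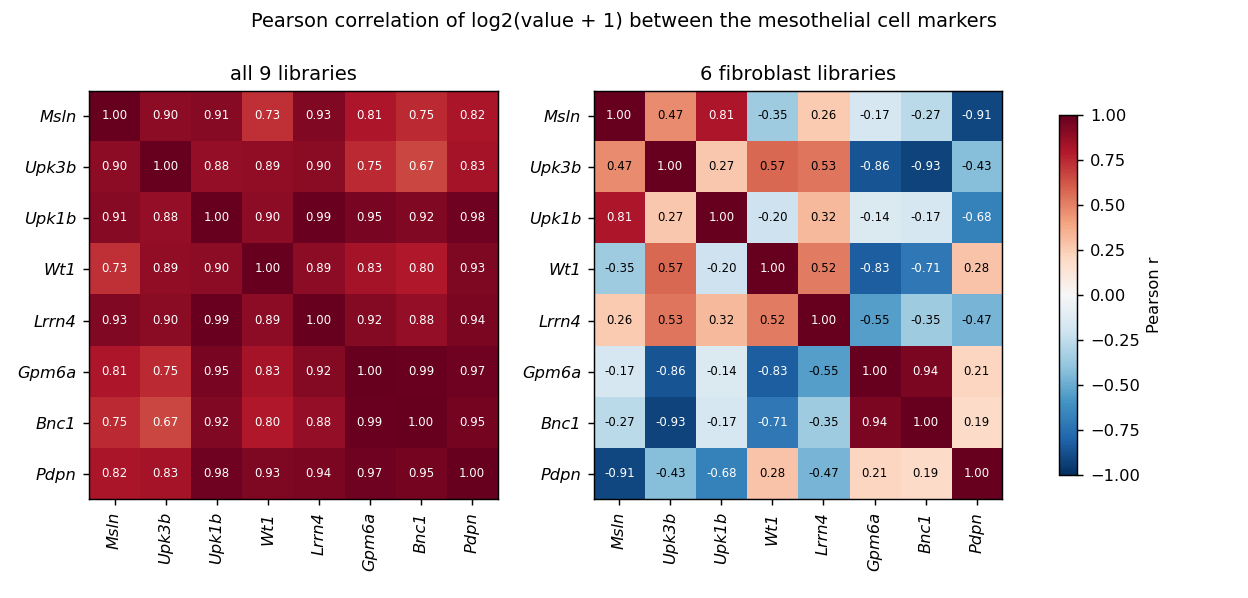
Pearson correlation of log2(value + 1) between each pair of the 8 markers, over all 9 libraries on the left and over the 6 fibroblast libraries on the right. All 28 pairs are positive on the left. On the right 16 are negative, and Gpm6a with Bnc1 is the highest pair at 0.943.

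A list of 18 other genes of mesothelium, written by hand, was read beside the markers. In NASH-fib against HSCs 13 of its 17 tested genes were called higher and 2 lower (8.23% and 4.3% of all tested genes), with a median log2 fold change of 3.42 (all tested genes -0.02). In CCl4-fib against HSCs 13 were called higher and 1 lower (16.2% and 11.7%), with a median of 4.03 (0.18). Both counts of 13 include Fgf9, which the study had singled out from these same libraries as raised in NASH-fib. Krt19, an epithelial keratin, was called higher by 4.75 in NASH-fib and 7.75 in CCl4-fib on the log2 scale. The retinoic acid enzyme Aldh1a2 was called higher by 4.29 and 6.06, and the annexin Anxa8 by 5.92 and 5.02. Nkain4, which encodes a partner of the sodium pump, was called higher by 5.07 and 6.66, and the keratin Krt7 by 4.90 and 5.03. The genes called lower were Podxl, a sialomucin, in NASH-fib (-1.95) and Cdh2, N-cadherin, in both (-2.81 and -2.04). Calb2, calretinin, a protein stained in human mesothelium, had 5 reads in CCl4-fib replicate 2 and 0 in every other library.

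In NASH-fib against CCl4-fib 2 genes of that list were called higher and 0 lower (4.97% and 5.66% of all tested genes). Fgf9, among the 2, was singled out by the study from these same libraries as raised in NASH-fib, so its call is no independent result. Cdh1, E-cadherin, was 173, 102 and 82.6 in NASH-fib and 12.7, 1.7 and 22.9 in CCl4-fib (log2 fold change 3.58, adjusted p = 0.0256, limma). Fgf9, the growth factor the study centres on, was 2.34, 0 and 4.78 in the HSC libraries, 81.8, 80.0 and 25.8 among CCl4-fib libraries and 652.5, 269.9 and 560.2 among NASH-fib libraries (log2 fold change 3.04, adjusted p = 0.0286, limma, in NASH-fib against CCl4-fib). Over the 6 fibroblast libraries the correlation of Fgf9 was highest with Gpm6a (0.942) and Bnc1 (0.874) and lowest with Wt1 (-0.891) and Upk3b (-0.676). As Fgf9 was singled out as raised in NASH-fib, these values partly restate which markers were higher or lower there, and are a description. Fgf9, Gpm6a and Bnc1 were also each highest in NASH-fib replicate 1. Nkain4, Krt19 and Slpi were low in NASH-fib replicate 1, as Msln and Upk3b were. Nkain4 was 160.4 there against 2335 and 2005 in replicates 2 and 3. Krt19 was 53.0 against 469 and 348, and Slpi 672 against 4153 and 4045. Genes outside the mesothelial lists were low there too, such as Timp1 (742 against 2563 and 2295) and Actg2 (277 against 2855 and 1612). Cdh1, Ezr and Rspo1 of the list were instead highest in NASH-fib replicate 1.

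Relatives of the markers in their gene families did not all follow them. Of 12 such genes 7 were tested, and 3 were called higher and 1 lower in each fibroblast group against HSCs. Over all tested genes these shares were 8.23% and 4.3% for NASH-fib and 16.2% and 11.7% for CCl4-fib. Bnc2, the paralogue of Bnc1, ran from 0 to 4.37 for HSCs, from 166 to 246 for CCl4-fib and from 148 to 183 for NASH-fib (log2 fold change 6.51 and 6.16). Lrrn3, a relative of Lrrn4, was 859.6 to 1800 in HSCs and at most 66.6 in the fibroblasts, and was called lower, with log2 fold changes of -7.87 in CCl4-fib and -6.03 in NASH-fib. Lrrn2 was 46.0 to 86.8 in CCl4-fib, 6.88 to 9.52 in NASH-fib (7, 9 and 7 reads) and at most 1.2 in HSCs. Its NASH-fib libraries were called lower than those of CCl4-fib (log2 fold change -2.91). Lrrn2 passed the filter on low counts only through CCl4-fib, where it is high, so its calls are no independent result. Gpm6b, the paralogue of Gpm6a, was called higher in NASH-fib (2.28) and not in CCl4-fib (1.67, adjusted p = 0.0585, limma). Upk2 and Upk3a, which with Upk1a and Upk1b build the bladder plaques, had 0 reads in every library, and Upk1a had at most 10 reads, so Upk1b and Upk3b were read without these partners at this depth. Muc1, a surface mucin, was 1.36, 125 and 102 in NASH-fib and 11.5 to 43.4 in CCl4-fib, and was not called.

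Proteins that podoplanin binds were read from a list of 7, of which 6 were tested. Ezr, a linker of membrane proteins to actin, and Cd9, a tetraspanin, were called higher in both fibroblast groups, Ezr by 3.42 and 3.39 and Cd9 by 2.90 and 2.82 on the log2 scale in NASH-fib and CCl4-fib. The hyaluronan receptor Cd44 was called higher in CCl4-fib against HSCs by 1.84 and was not called in NASH-fib (0.71, adjusted p = 0.396, limma). Clec1b, the gene of the receptor CLEC-2, ran from 687 to 967 for HSCs, from 0 to 12.8 for CCl4-fib and from 37.4 to 296 for NASH-fib. Its log2 fold change was -7.11 in CCl4-fib against HSCs and 4.52 in NASH-fib against CCl4-fib, both called.

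Markers of other cells that could hold these genes moved between the groups as well. The summed level of 8 cholangiocyte markers was 54.95 to 80.1 for HSCs, 1712 to 3442 for CCl4-fib and 1867 to 2913 for NASH-fib. Against HSCs 7 of 8 were called higher in NASH-fib and 4 of 8 in CCl4-fib, beside 8.23% and 16.2% of all tested genes. Most of that sum was Krt19, Krt7, Sox9 and Tspan8, of which the keratins also stand in the mesothelial list. Epcam, which defines cholangiocytes, was 0.85 to 7.94 in CCl4-fib and 20.6 to 66.6 in NASH-fib. Of the lymphatic endothelial markers, Prox1 was 0.95 to 3.4 in CCl4-fib and 5.34 to 25.8 in NASH-fib, and Ccl21a was at 0 in 2 libraries of each fibroblast group. Of the 5 lymphatic markers tested, 0 were called higher against HSCs in either fibroblast group, and 2 were called lower in NASH-fib and 3 in CCl4-fib. Lower calls made up 4.3% and 11.7% of all tested genes, and higher calls 8.23% and 16.2%. Reln, called lower in both, also stands in the list of quiescent stellate genes. Lyve1 alone of the 5 was called higher in NASH-fib than in CCl4-fib. The summed levels of 8 markers each were lowest in CCl4-fib for sinusoidal endothelium (5565.5 to 13640 for HSCs, 219 to 238 for CCl4-fib, 957 to 3144 for NASH-fib), macrophages (2899 to 9275, 128 to 252 and 432 to 1746, in the same order) and hepatocytes (22110 to 38281, 2403 to 3754 and 8532 to 29221). Of the 8 genes of each list, 6 sinusoidal, 3 macrophage and 6 hepatocyte markers were called higher in NASH-fib than in CCl4-fib, as 4.97% of all tested genes were. The summed portal fibroblast markers were 208 to 250.2 for HSCs, 11765 to 15224 for CCl4-fib and 6491 to 12377 for NASH-fib, and those of smooth muscle 131 to 446, 3142 to 13534 and 3061 to 20102. Against HSCs 7 of 8 portal fibroblast markers were called higher in NASH-fib (median log2 fold change 4.63) and 7 in CCl4-fib (5.39). Of 6 smooth muscle markers 4 (6.13) and 5 (6.44) were, beside 8.23% and 16.2% of all tested genes. The rise against HSCs was thus not particular to the mesothelial markers. The part of these cells in the marker values was not tested.

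For each marker the 3 other tested genes with the highest Pearson correlation of log2(value + 1) over the 9 libraries were listed, a description over points that share the groups. Msln was nearest to Pmp22 (0.987), Myl9 and Fxyd6 (both 0.984), and Upk3b to Krt19 (0.988), Tmem119 (0.988) and Ptges (0.986). Upk1b was nearest to Acta2 (0.994), Mfap5 (0.994) and Adamtsl1 (0.993), and Lrrn4 to Krt7 (0.992), S100a6 and Il17re (both 0.988). Wt1 was nearest to Col1a1 (0.992), Gxylt2 (0.992) and Flrt2 (0.991), which were all lower in NASH-fib than in CCl4-fib by their means, Col1a1 with 4322 against 10287. Gpm6a was nearest to Trpc6 (0.993), 9330159F19Rik (0.992) and Lhx9 (0.992), and Bnc1 to Fmo2 (0.989), Gpc3 (0.986) and Zfp185 (0.985), all 6 with a higher mean in NASH-fib, Fmo2 with 11526 against 2623. Pdpn was nearest to Col4a6 (0.996), Atp10a (0.995) and Tnfaip6 (0.993).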

How the data were processed

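RNA of HSCs, CCl4-fib and NASH-fib, 3 libraries each, was amplified with the SMARTer kit, and single-end reads were aligned by the authors to mm10 with STAR. By the commands in the file header the authors counted reads of either strand on RefSeq exons with HOMER, keeping up to 3 reads at a position and merging the transcripts of a gene, and normalized them for DESeq2 over 10 libraries, of which the tenth is not analysed here. The submitters' processing notes also name CASAVA. The deposited values are a signal per gene, namely counts times 1 factor per library, and at least 99.9% of them are whole multiples (within 0.01) of what 1 read is worth. Precision of low values is limited by these reads, and 3 reads were worth 2.38 to 4.37.

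Values were tested with limma 3.58.1 (R 4.3.3) on log2(value + 1) in 1 fit over the 3 groups, with a prior spread following the mean, for genes kept by filterByExpr of edgeR (minimum count 10), and p-values were adjusted over 13651 genes. The fit was tested on simulated data. The pairs of libraries differed beyond sampling noise. As the values are not counts, edgeR 4.0.16 and DESeq2 1.42.0 on the recovered reads were alternatives, beside other scalings, filters and pseudocounts (0.5 and 4), the compared groups alone, the replicate number or description text as a term, and each library left out. A correction for GC and transcript length and the fit without HSC replicate 2 and NASH-fib replicate 1 were added after seeing the data. The correction was fitted in each library to deviations from the mean of all libraries, not of its group.

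The markers and gene lists were chosen with earlier results of these data known, and the lists were written by hand. Genes named are the markers, called genes of the lists, defining genes of other cell types, Fgf9, Col1a2 and the 3 genes most correlated with each marker. Mc4r, Muc1, Calb2, Upk1a, Upk2, Upk3a, Cdh1, Cdh2, Podxl and Slpi were named after their values were seen. Exact permutation of 3 against 3 libraries cannot go below p = 0.1 and was not used. Each library is a pool of mice, so p-values measure the spread between pools.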

Additional observations from a re-analysis of the deposited data

How the results depend on the processing

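Of 495 values recomputed under alternatives, 468 kept their direction and their side of the threshold. For the markers called in both comparisons with HSCs, the count of 8 stayed at 8 with each library left out in turn and was 5 of 5 tested where an average RPKM over 100 was required, fewer genes being tested. Of 8, it was 6 (NASH-fib) and 7 (CCl4-fib) with no filter on low counts, and 7 for NASH-fib with the description text as a term. For NASH-fib against CCl4-fib the count of 1 was 4 with DESeq2, 2 with edgeR, 0 with the description text as a term, 0 after the GC content and length correction and 2 without HSC replicate 2 and NASH-fib replicate 1. It ran from 0 to 2 over the libraries left out, being 0 if CCl4-fib lacked replicate 2 or replicate 3, or NASH-fib replicate 3, and 2 if NASH-fib lacked replicate 2. With the RPKM filter it was 1 as before, but for Gpm6a, since Wt1 was not tested.

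Signs changed only in NASH-fib against CCl4-fib and only for markers that were not called. Pdpn was 0.15 with DESeq2, 0.16 with edgeR and 0.058 with upper-quartile scaling. Lrrn4 was 0.0039 with edgeR, 0.082 with the description text as a term and 0.038 after the GC correction. Upk1b was -0.11 after the GC correction. Leaving out single NASH-fib libraries gave -0.24 to 1.52 for Msln, -0.12 to 0.22 for Upk1b and -0.15 to 0.017 for Pdpn. The cause was not tested. Over all tested genes, calls with no filter on low counts were 455 in place of 1451 in this comparison, and 668, 593 and 2476 with the description text as a term in place of 1711, 1451 and 3801.

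The replicate numbers do not pair the pools: deviations of same-numbered libraries correlated at -0.473 to 0.514, and not every library was closest to its own number. With the replicate block the counts of called markers stayed at 8, 1 and 8, while calls over all genes were 1487, 929 and 3312. Reads limit HSC values most, with 5 reads for Lrrn4 and 7 for Upk3b in HSC replicate 2.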
